A study of Homo sapiens with 18 samples.

Results

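All 18 RNA-seq libraries of the series entered 1 comparison, in which 12 libraries of cells treated with an EHMT2 inhibitor were set against 6 libraries of cells treated with DMSO, with the cell line as an additive term. The cells were Mel92.1 and MP41, established lines of human uveal melanoma, the melanoma that arises in the eye. Each line was treated with UNC0642 at 1 μM, with A366 at 1 μM or with DMSO as the vehicle control, and the inhibitors were given for 48 h. There were 3 replicates in each of the 6 groups, so that 4 groups had an inhibitor, and no further genetic change was stated for any group. Of 15799 genes tested, 13 passed the threshold of this comparison, and in all 13 the difference from DMSO had the same sign in the 4 inhibitor groups. Of all genes tested, 8.96% were above DMSO in the 4 groups and 10.3% below it.

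EHMT2, also called G9a, is a histone methyltransferase that places mono- and dimethylation on lysine 9 of histone H3, a mark of silent genes, and it usually works with its relative EHMT1. UNC0642 and A366 occupy the substrate site of both enzymes, so the histone mark falls while the protein and its mRNA can remain. Silencing through lysine 9 methylation is also carried by KRAB zinc finger proteins, a large family of DNA-binding repressors whose genes lie in clusters on chromosome 19 and which bring in the methyltransferase SETDB1.

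The labels of 4 libraries went against the line that their counts held. Over 26 genes present in Mel92.1 alone and 34 present in MP41 alone, judged in the DMSO libraries, the 4 libraries labelled A366 replicates 2 and 3 reached 93.6% to 114% of the level of the other line and 0.0245% to 0.0669% of that of the line on their label. The other 14 libraries held at least 65.4% of their own line's level and at most 0.241% of the other's. The 4 libraries were therefore placed in the line they carried. Each A366 group below has 1 library under its own label and 2 labelled with the other line. Depth ran from 23601156 to 62941462 counts per library, with ribosomal RNA genes at 3.31% to 32.8% of the counts. The library labelled Mel92.1 UNC0642 replicate 1 stood apart, with the fewest counts, the largest ribosomal share and 13346 genes with a count against 16298 to 18221 in the others. Mel92.1 A366 replicate 3 and MP41 A366 replicate 1, both placed in MP41, deviated most from their line by GC content and length of genes. The SD of that deviation was 0.265 and 0.188 on the log2 scale, against at most 0.109 in any other library. The part of this deviation in the values of the MP41 A366 group was not tested beyond an offset for both. The melanocyte markers MITF, PMEL, MLANA, TYR, TYRP1, DCT and SOX10 had counts in all 18 libraries, and their summed level was 16460 to 22210 CPM (counts of a gene scaled to the size of its library) with DMSO and 16260 to 23010 CPM with an inhibitor. Of 9 markers of other cell types, CD68 reached 204 CPM. The other 8, PTPRC, CD3E, PECAM1, VWF, EPCAM, DCN, ALB and HBB, summed to 0.614 to 4.56 CPM with DMSO and 0 to 11.9 CPM with an inhibitor, and CD3E and HBB were at 0 in 16 and 17 libraries. In such bulk samples, fewer cells of a type and less RNA per cell cannot be told apart.

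With an inhibitor 11 genes rose and 2 fell across both lines and both compounds. The rises were AZGP1, NOX5, LHFPL3-AS1, LAMB3, SLAMF7, SULT1C2, ACY1, GJB1, SHC4, RCN1 and CPVL, with log2 fold changes of 1.91 down to 0.25. The falls were ZNF274 and ZNF320, both zinc finger genes of chromosome 19. By the quasi-likelihood test of edgeR, with p adjusted after Benjamini and Hochberg, these rises were 0.0696% and these falls 0.0127% of the genes tested, and 907 genes were higher and 519 lower at an unadjusted p under 0.05. In 12 of the 13, every one of the 6 inhibitor libraries of each line lay beyond all 3 DMSO libraries of that line, a state called separated below. SLAMF7 was the exception. Over all genes, 38 (0.241%) were separated above and 27 (0.171%) below DMSO, so that 53 of 65 separated genes did not pass the threshold. Both inhibitor groups of a line share its 3 DMSO libraries, and the same sign in 4 groups is thus not 4 independent observations. When the 4 libraries with the wrong line were left out, AZGP1, LHFPL3-AS1 and SULT1C2 passed, and with the line taken from the labels no gene did, with 326 at an unadjusted p under 0.05. After an offset for the length and GC content of genes, SULT1C2, ACY1, GJB1, SHC4, RCN1 and CPVL did not pass. Without Mel92.1 UNC0642 replicate 1, 60 genes passed, the 13 among them.

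**Figure D1:**
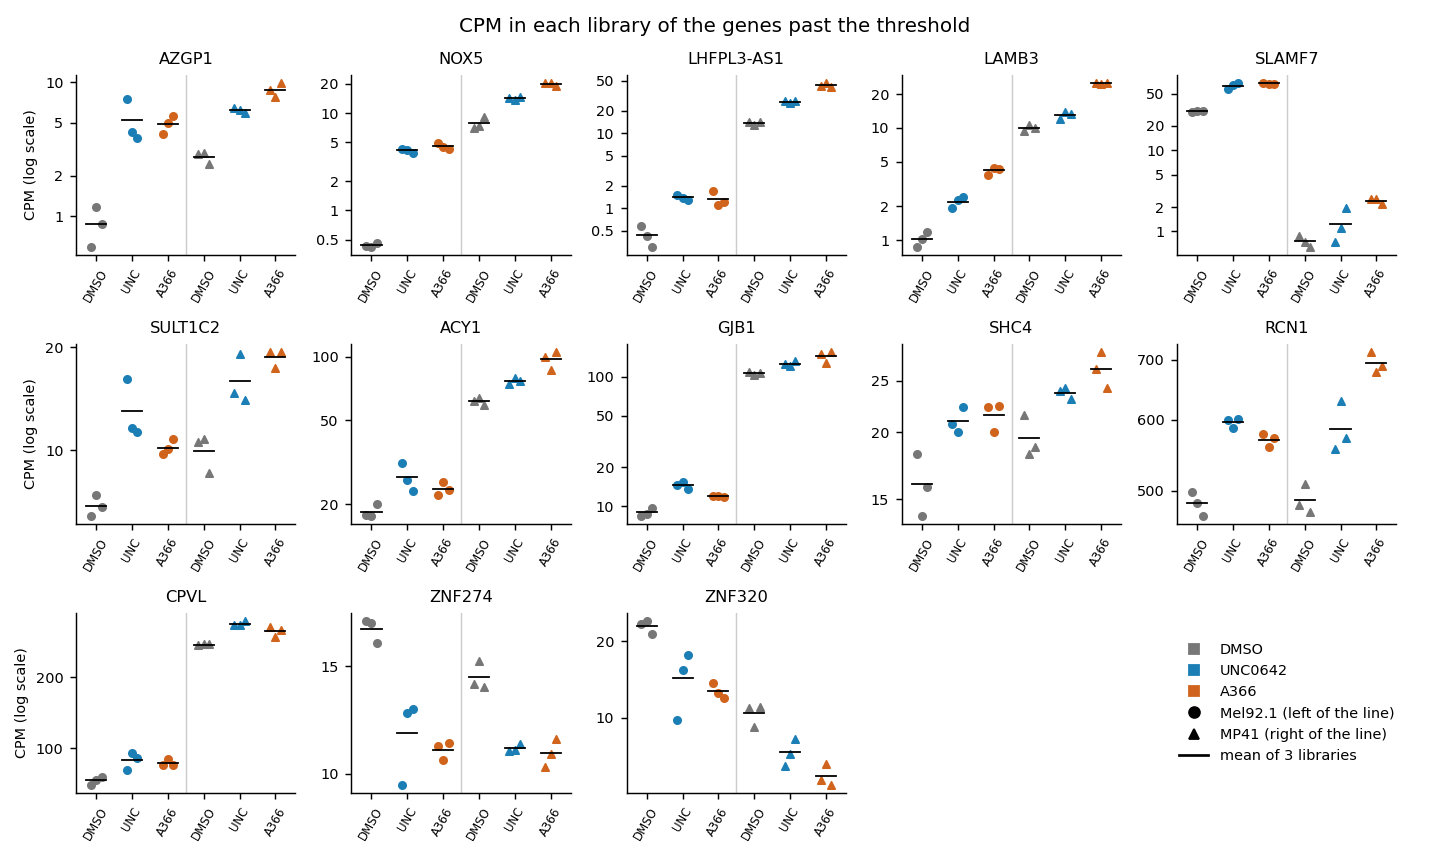
CPM (log scale) of the 13 genes past the threshold, with 1 point for each of the 18 libraries, Mel92.1 as circles left of the grey line and MP41 as triangles right of it, grouped by treatment, and a bar at the mean of 3 libraries. Every inhibitor point lies above the DMSO points of its line for 10 genes and below them for ZNF274 and ZNF320, while SLAMF7 in MP41 has 1 UNC0642 library among the DMSO values.

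AZGP1 (chr7:99966720-99976157, minus strand, hg38) encodes zinc-alpha-2-glycoprotein, a secreted protein with the fold of MHC class I molecules that is known for mobilising lipid. In Mel92.1 it stood at 0.594, 1.17 and 0.876 CPM with DMSO, at 7.53, 4.25 and 3.83 CPM with UNC0642 and at 4.14, 5.01 and 5.62 CPM with A366. In MP41 the values were 2.90, 2.97 and 2.48 CPM with DMSO, 6.45, 6.26 and 5.89 CPM with UNC0642 and 8.77, 7.73 and 9.95 CPM with A366. No inhibitor library reached down to the DMSO values of its line, and the gene rose by a log2 fold change of 1.91 ± 0.22 (SE, n = 12 against 6, adjusted p = 0.000388). The call held without each library in turn and was lost in MP41 alone (adjusted p = 0.218) and with the line as labelled (0.229).

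NOX5 (chr15:68930525-69062743, plus strand) encodes a calcium-activated NADPH oxidase that makes superoxide. Its level in Mel92.1 was 0.430, 0.426 and 0.464 CPM with DMSO, 4.31, 4.22 and 3.90 CPM with UNC0642 and 4.99, 4.52 and 4.23 CPM with A366. MP41 began far higher, at 7.10, 7.32 and 9.15 CPM, and had 14.5, 13.5 and 14.8 CPM with UNC0642 and 20.2, 20.5 and 18.8 CPM with A366. The libraries of each line fell into tight groups without overlap. The shared log2 fold change was 1.88 ± 0.27 (adjusted p = 0.0040), made up of 3.20 and 3.35 for UNC0642 and A366 in Mel92.1 and of 0.87 and 1.34 in MP41, and the change was larger in Mel92.1 by 2.20 (95% interval 1.82 to 2.58, adjusted p = 5.74e-06). NOX5 overlaps SPESP1 on the same strand, which had 1 count in all libraries together. Without the 4 libraries the adjusted p was 0.0603.

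LHFPL3-AS1 (chr7:104738597-104804107, minus strand), a noncoding RNA antisense to LHFPL3, rose by 1.44 ± 0.16 (adjusted p = 0.000388). In MP41 it went from 14.3, 12.8 and 14.02 CPM with DMSO to 26.99, 25.6 and 26.99 CPM with UNC0642 and 42.5, 47.3 and 41.3 CPM with A366. In Mel92.1 it was low, with at least 12 counts in a library, at 0.573, 0.426 and 0.309 CPM with DMSO, 1.52, 1.38 and 1.29 CPM with UNC0642 and 1.72, 1.12 and 1.22 CPM with A366. The groups did not overlap in either line. Whether counting used strand is not stated, so reads of this RNA and of LHFPL3, which had 288 counts in all, could not be told apart where they overlap.

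LAMB3 (chr1:209614870-209652466, minus strand) encodes the beta 3 chain of a laminin of epithelial basement membranes. Its levels in Mel92.1 were 0.880, 1.04 and 1.19 CPM with DMSO, 1.94, 2.28 and 2.42 CPM with UNC0642 and 3.84, 4.42 and 4.33 CPM with A366. In MP41 they were 9.34, 10.6 and 9.91 CPM with DMSO, 11.9, 13.98 and 13.2 CPM with UNC0642 and 25.1, 24.6 and 25.2 CPM with A366. In both lines the 3 treatments formed separate steps, with A366 on top. The log2 fold change was 1.23 ± 0.23 (adjusted p = 0.0326), and A366 exceeded UNC0642 by 0.92 (95% interval 0.73 to 1.11, adjusted p = 8.68e-06). The shared call was lost on leaving out any 1 of the 6 DMSO libraries or any A366 library but Mel92.1 A366 replicate 1, with an adjusted p of up to 0.197. Without the 4 libraries it was 0.344.

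SLAMF7 (chr1:160739057-160754821, plus strand) encodes a surface receptor known from NK cells and plasma cells that binds itself on neighbouring cells. Mel92.1 had 30.0, 30.9 and 30.4 CPM with DMSO, 57.2, 64.6 and 67.4 CPM with UNC0642 and 68.3, 65.8 and 66.5 CPM with A366. MP41 had 0.887, 0.744 and 0.652 CPM with DMSO, 0.734, 1.10 and 1.92 CPM with UNC0642 and 2.54, 2.495 and 2.15 CPM with A366. All inhibitor libraries of Mel92.1 stood clear of DMSO, whereas 1 UNC0642 library of MP41 lay within the DMSO range. The log2 fold change was 1.15 ± 0.17 (adjusted p = 0.00523), and 0.0696 without the 4 libraries.

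Enzymes of small molecules made up the next rises. SULT1C2 (chr2:108288639-108309915, plus strand), a cytosolic sulfotransferase, had 6.43, 7.37 and 6.80 CPM with DMSO in Mel92.1, against 16.1, 11.6 and 11.3 CPM with UNC0642 and 9.72, 10.04 and 10.8 CPM with A366. In MP41 the levels were 10.5, 10.8 and 8.58 CPM with DMSO, 14.7, 19.1 and 14.04 CPM with UNC0642 and 19.3, 17.4 and 19.4 CPM with A366. The groups did not overlap, and the gene rose by 0.77 ± 0.11 (adjusted p = 0.00331) and was at an adjusted p of 0.0264 without the 4 libraries and of 0.0767 after the offset for length and GC content. ACY1 (chr3:51983278-51989202, plus strand), aminoacylase 1, rose by 0.47 ± 0.08 (adjusted p = 0.0198), from 18.5 ± 1.4 CPM (SD, n = 3) with DMSO to 26.9 ± 4.1 under UNC0642 and 23.7 ± 1.7 under A366 in Mel92.1. In MP41 it went from 61.7 ± 2.6 CPM to 76.9 ± 2.6 and 97.3 ± 9.8 CPM. ACY1 shares exons and strand with the read-through gene ABHD14A-ACY1, whose mean was 6.22, 0.947 and 1.57 CPM in Mel92.1 and 4.77, 0 and 5.26 CPM in MP41, in the same order of treatments. Summed over both genes, Mel92.1 had 23.01 to 26.2 CPM with DMSO, 23.2 to 31.3 CPM with UNC0642 and 24.15 to 25.9 CPM with A366, so that the pair was not separated in this line and all A366 libraries lay within the DMSO range. In MP41 the sums were 64.1 to 68.01, 74.4 to 79.6 and 87.5 to 115.7 CPM, without overlap with DMSO. The ACY1 call was lost on leaving out any of 8 libraries, namely the 3 MP41 DMSO libraries, Mel92.1 DMSO replicates 1 and 2, Mel92.1 UNC0642 replicate 2, Mel92.1 A366 replicate 2 and MP41 A366 replicate 3 (adjusted p up to 0.133).

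The smallest rises were those of GJB1, SHC4, RCN1 and CPVL. GJB1 (chrX:71215194-71225516, plus strand), the gap junction protein connexin 32, had 8.47 to 9.69 CPM with DMSO and 11.9 to 15.3 CPM with an inhibitor in Mel92.1, and 104 to 109 against 122 to 156 CPM in MP41, a log2 fold change of 0.45 ± 0.07 (adjusted p = 0.0106). SHC4 (chr15:48823735-48963444, minus strand), an adaptor of receptor tyrosine kinases, had 13.97 to 18.2 against 20.04 to 22.4 CPM in Mel92.1 and 18.2 to 21.5 against 23.1 to 28.3 CPM in MP41 (0.39 ± 0.07, adjusted p = 0.0198). EID1 lies on the opposite strand of SHC4. RCN1 (chr11:32090904-32105755, plus strand), a calcium-binding protein of the endoplasmic reticulum, had 469 to 499 against 560 to 602 CPM in Mel92.1 and 474 to 508 against 556 to 714 CPM in MP41 (0.33 ± 0.05, adjusted p = 0.00942). CPVL (chr7:28995231-29195451, minus strand), a carboxypeptidase, had 70.1 to 75.7 against 80.8 to 95.1 CPM in Mel92.1 and 274 to 277 against 298 to 347 CPM in MP41 (0.25 ± 0.04, adjusted p = 0.0190). None of these 4 overlapped between DMSO and inhibitor in either line, and none passed without the 4 libraries. Leaving out 1 library ended the call of GJB1 for Mel92.1 DMSO replicate 1 or 2 or MP41 DMSO replicate 2 (adjusted p up to 0.0845), of SHC4 for DMSO replicates 2 or 3 of either line (up to 0.131), of RCN1 for MP41 DMSO replicate 3 (0.0609), and of CPVL for any DMSO library or MP41 A366 replicate 3 (up to 0.173).

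The 4 changes of a gene were not of one size. Over all genes, 4075 (25.8%) differed among the 4 inhibitor groups (quasi-likelihood F test, adjusted p under 0.05), 2073 (13.1%) by compound and 174 (1.1%) by line. Of the 13, 8 differed among the groups, 4 by compound and 2 by line. A366 gave the larger change over both lines in NOX5 (by 0.31, 95% interval 0.13 to 0.50), LHFPL3-AS1 (0.35, 0.11 to 0.58), LAMB3 and SLAMF7 (0.52, 0.24 to 0.79). For LHFPL3-AS1 this rested on MP41, with 1.67 for A366 and 0.95 for UNC0642, while Mel92.1 had 1.62 and 1.70. For SLAMF7 it came mostly from MP41, with 1.65 for A366 and 0.61 for UNC0642, while Mel92.1 had 1.13 and 1.05. For AZGP1 the difference between A366 and UNC0642 was 0.23 with an interval of -0.13 to 0.59, and for SULT1C2 it was -0.06 with -0.28 to 0.16, so neither direction was shown. SHC4, CPVL, SULT1C2, ZNF274 and ZNF320 did not pass the test of a difference among groups, with adjusted p of 0.183 to 0.629. The compounds were given at the same dose and time, and 1 pair was compared. Leaving out Mel92.1 A366 replicate 3 left 1610 genes that differed among the groups, and leaving out MP41 A366 replicate 1 left 1799. Without the 4 libraries 623 genes differed among the groups.

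**Figure D2:**
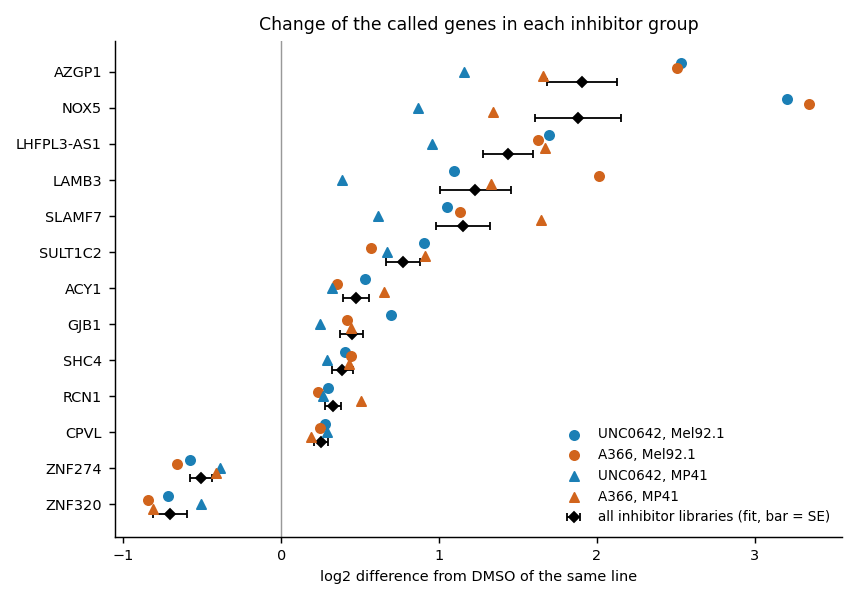
Log2 difference from the DMSO libraries of the same line for the 13 genes, with 1 coloured point for each of the 4 inhibitor groups (mean of 3 libraries) and a black diamond for the shared log2 fold change with its standard error. Points of 1 gene lie on the same side of 0, NOX5 spreads from 0.87 to 3.35, and CPVL from 0.19 to 0.29.

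ZNF274 and ZNF320 were the falls. ZNF274 (chr19:58183029-58213562, plus strand) encodes a KRAB zinc finger protein that binds zinc finger genes and brings SETDB1 to them. It had 17.8, 17.6 and 16.4 CPM with DMSO in Mel92.1, 9.60, 12.6 and 12.8 CPM with UNC0642 and 11.1, 10.5 and 11.2 CPM with A366. In MP41 the values were 14.04, 15.3 and 13.9 CPM with DMSO, 10.9, 10.95 and 11.2 CPM with UNC0642 and 10.3, 10.8 and 11.4 CPM with A366. No inhibitor library reached the DMSO range, and the gene fell by 0.51 ± 0.07 on the log2 scale (adjusted p = 0.00331, and 0.0603 without the 4 libraries). ZNF320 (chr19:52863790-52897693, minus strand), a further KRAB zinc finger gene, had 23.3, 23.97 and 21.3 CPM with DMSO, 9.84, 15.5 and 17.6 CPM with UNC0642 and 13.7, 12.5 and 11.97 CPM with A366 in Mel92.1. In MP41 it had 10.97, 9.22 and 11.1 CPM with DMSO, 6.49, 7.24 and 8.24 CPM with UNC0642 and 5.73, 6.58 and 5.47 CPM with A366. These ranges did not overlap either, and the gene fell by 0.70 ± 0.11 (adjusted p = 0.00551, and 0.0937 without the 4 libraries). ZNF320 overlaps ZNF468 on the same strand, and zinc finger genes resemble each other, so the split of reads between such neighbours is uncertain.

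Zinc finger genes as a family had a median below DMSO. Of 529 genes named ZNF with a number, 488 were tested, which was 3.09% of all genes tested. Of these, 118 (24.2%) were lower and 14 higher at an unadjusted p under 0.05, against 3.29% lower over all genes, and only ZNF274 and ZNF320 passed the adjusted threshold. In 176 (36.1%) the change was below 0 in all 4 groups and in 21 (4.30%) above 0, against 10.3% and 8.96% of all genes. The zinc finger genes supplied 16 of the 27 genes separated below DMSO and 1 of the 38 above it, ZNF703 (0.33 ± 0.09, adjusted p = 0.222). The median log2 fold change was -0.17 over the 488 and 0.02 over all genes. Without the 4 libraries 71 of 487 were lower at that level, and without Mel92.1 UNC0642 replicate 1 it was 158 of 488, with 10 past the adjusted threshold. With A366 libraries alone the number was 246 of 488, and with UNC0642 alone 38 of 486. The number over all genes moved as well. In both directions together, 1426 of 15799 genes were at that level in the fit reported. It was 974 of 15603 without the 4 libraries and 1756 of 15831 without Mel92.1 UNC0642 replicate 1. A366 alone gave 4277 of 15594 and UNC0642 alone 1238 of 15464.

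Zinc finger genes were split by whether they lie on chromosome 19. Of 239 tested there, 87 (36.4%) were lower and 1 higher at an unadjusted p under 0.05, with a median log2 fold change of -0.31 (2.88% lower and a median of 0.06 among the 834 other genes of that chromosome). Of 246 on other chromosomes, 30 (12.2%) were lower and 13 higher, with a median of -0.06. Along chromosome 19 the share was 22 of 41 between 50 and 55 Mb, 13 of 28 between 20 and 25 Mb and 6 of 28 between 40 and 50 Mb. In the 4 groups the median over the chromosome 19 genes was -0.25 for UNC0642 and -0.41 for A366 in Mel92.1, and -0.13 and -0.54 in MP41. The share below 0 was 79.1%, 91.6%, 68.2% and 84.5% in that order, against 57.0%, 50.1%, 48.9% and 45.5% of all genes. Zinc finger genes had a median GC content of 42.9% against 48.5% over all genes tested, and the part of GC content in these values was not tested beyond the offset. The number lower on chromosome 19 was 73 of 238 after the offset (median -0.26) and 25 of 239 with the line as labelled. Over all genes and in both directions, 973 of 15273 were at that level after the offset. With the line as labelled it was 326 of 15799, against 1426 in the fit reported. Ribosomal RNA differed between libraries as given above. Leaving its genes out of the scaling gave 92 of 238 lower, with 1471 of 15832 over all genes in both directions.

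**Figure D3:**
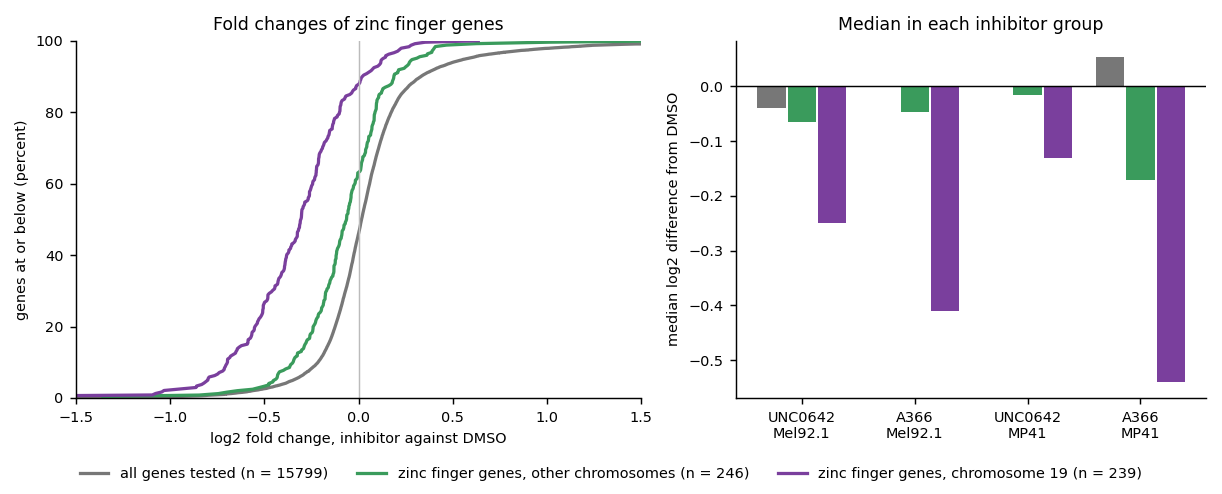
Left, the percent of genes at or below each log2 fold change (inhibitor against DMSO) for all genes tested and for zinc finger genes on chromosome 19 and elsewhere, and right, the median log2 difference from DMSO of the same 3 sets in each inhibitor group. The chromosome 19 curve is shifted to the left, with a median of -0.31, and its 4 group medians run from -0.13 to -0.54.

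Among the zinc finger genes separated below DMSO, ZNF776 had 16.1 ± 1.8 CPM with DMSO, 12.6 ± 1.1 with UNC0642 and 9.80 ± 0.65 under A366 in Mel92.1, and 4.85, 3.54 and 1.99 CPM in MP41 (log2 fold change -0.67 ± 0.16, adjusted p = 0.125). ZNF525 had 9.25 to 10.9 CPM with DMSO and 6.08 to 8.69 CPM with an inhibitor in Mel92.1, and 2.49 to 3.30 against 0.776 to 2.02 CPM in MP41 (-0.70 ± 0.17, adjusted p = 0.130). ZNF83 had 7.88 to 8.74 against 4.44 to 7.88 CPM in Mel92.1, where the nearest libraries almost touched, and 7.78 to 8.67 against 3.77 to 7.72 CPM in MP41 (-0.43 ± 0.14, adjusted p = 0.317). ZNF667 was far lower in 1 library, Mel92.1 UNC0642 replicate 1, with 0.0607 CPM against 4.99 to 6.32 CPM in the other inhibitor libraries of Mel92.1. The other 10 of the 16 were ZNF155, ZNF329, ZNF470, ZNF559, ZNF569, ZNF614, ZNF702P, ZNF75A, ZNF772 and ZNF844, with log2 fold changes of -0.42 to -0.95.

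**Figure D4:**
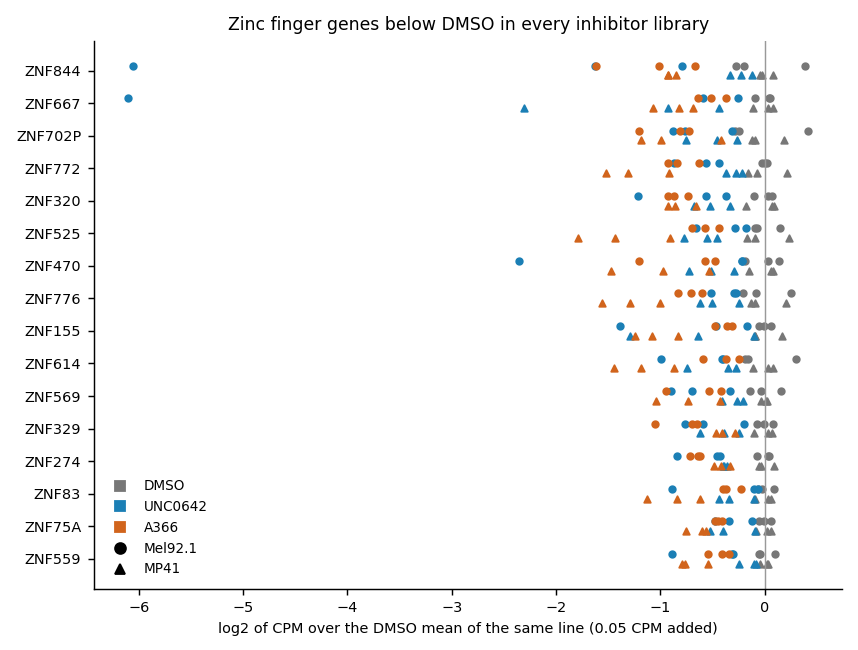
Log2 of CPM over the DMSO mean of the same line (0.05 CPM added) for the 16 zinc finger genes separated below DMSO, with 1 point for each of the 18 libraries, coloured by treatment. Inhibitor points lie left of the DMSO points of their line, and 1 UNC0642 library of Mel92.1 lies near -6 for ZNF844 and ZNF667.

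Of 5 separated zinc finger genes between 50 and 55 Mb of chromosome 19, ZNF320, ZNF525, ZNF614, ZNF702P and ZNF83, 4 had an entry in the RefSeq promoter table (GRCh38.p14, 250 bases before to 50 after each start). The promoters of ZNF320, ZNF525 and ZNF83 held the same run of 15 bases upstream of the start. It is shown in capitals below since these 3 lower genes have it in common. The promoter of ZNF614 did not hold it. The longest run that all 4 shared upstream was ACCTC, which stood in 41.35% of all promoters. The run of 15 bases was picked after the sequences and values had been seen. The stretches lie at chr19:52897734-52897848 (minus strand), chr19:53365595-53365704 (plus) and chr19:52690497-52690605 (minus), and the run ends 89, 45 and 44 bases before the start.
ZNF320: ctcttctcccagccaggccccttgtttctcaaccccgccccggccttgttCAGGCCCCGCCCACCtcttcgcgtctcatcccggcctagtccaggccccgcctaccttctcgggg
ZNF525: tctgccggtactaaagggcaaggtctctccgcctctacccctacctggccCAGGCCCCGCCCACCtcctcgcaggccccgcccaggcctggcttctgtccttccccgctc
ZNF83: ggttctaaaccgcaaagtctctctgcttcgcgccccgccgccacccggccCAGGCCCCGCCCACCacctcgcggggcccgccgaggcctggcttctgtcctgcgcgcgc
The run stood in 26 of 27305 promoters (0.0952%), in 6 of 72 zinc finger genes of chromosome 19 that were lower at an unadjusted p under 0.05 (8.33%) and in 3 of the 130 others (2.31%). These genes are near copies of each other, so shared letters are not independent. The 6 lower genes include ZNF320, ZNF525 and ZNF83, from which the run was taken, so their share was in part fixed in advance. The motif TCACNCCAC, searched on both strands, was in the same 3 promoters of the 21 matched for genes separated below DMSO, against 1.15% of all promoters. Among the zinc finger genes of chromosome 19 it was in 5 of the 72 lower ones (6.94%), these 3 included. It was also in 4 of the 130 others (3.08%). Of the 12 matched promoters of the 13 called genes, ACY1 held CACGTG (7.44% of all promoters), ZNF320 held TCACNCCAC, and none held TGATGNAA (3.67% of all), TGACGTCA (1.98%) or the interferon-response motif (3.65%).

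When each of the 6 groups had its own mean and the 4 changes were averaged, the spread between libraries was smaller (coefficient of biological variation 0.143 against 0.189). Then 229 genes (1.45%) were higher and 119 (0.753%) lower, with the 13 included. Of these 348, 231 had the same sign in all 4 groups, 140 above and 91 below DMSO, and 246 of the 348 also differed in size among the groups. Zinc finger genes made up 38 of the 91 and 3 of the 140. Beyond the 13, this measure took in BANCR (mean of the 4 log2 differences 2.12 ± 0.13, adjusted p = 8.42e-08), a long noncoding RNA first described in melanoma, BTK (1.804 ± 0.15, 2.02e-06), a tyrosine kinase of B cells, and, on the lower side, the actin-bundling protein FSCN1 (-0.43 ± 0.05, 4.22e-05). Without the 4 libraries 68 were higher and 14 lower.

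A list of 8 genes, among them those described next, was picked on these same libraries before, so its direction is not independent evidence. All 8 were higher at an unadjusted p under 0.05 with 1 sign in the 4 groups, and AZGP1, NOX5 and SLAMF7 passed the adjusted threshold. BANCR had 0.594, 0.479 and 0.927 CPM with DMSO, 2.73, 3.48 and 2.23 CPM with UNC0642 and 8.83, 9.88 and 10.2 CPM with A366 in Mel92.1, and MP41 had 7.68, 9.73 and 6.997 CPM, 13.4, 14.2 and 12.2 CPM, and 32.1, 25.1 and 30.1 CPM. Its libraries did not overlap between treatments, and the spread among the 4 changes, 0.72 to 3.88, went with an adjusted p of 0.0673 (log2 fold change 2.07 ± 0.41). KRT23, an epithelial keratin, was also separated, with 2.13 to 3.01 against 3.33 to 6.26 CPM in Mel92.1 and 0.411 to 0.760 against 0.867 to 1.87 CPM in MP41 (1.04 ± 0.21, adjusted p = 0.0706). BST2 (tetherin, 1.09 ± 0.24), LINC00426 (1.205 ± 0.26) and SERPINA1 (alpha-1-antitrypsin, 0.86 ± 0.21) were not separated because of Mel92.1 UNC0642 replicate 1, where they had 0.729, 4.43 and 1.03 CPM against 1.56 to 2.15, 12.7 to 13.4 and 4.11 to 4.45 CPM in the other 2 libraries of that group. In that library BST2 lay within the DMSO range of the line (0.6345 to 0.979 CPM), and LINC00426 and SERPINA1 lay below theirs (5.79 to 7.24 and 1.46 to 1.76 CPM). Without that library all 8 passed the adjusted threshold, and without the 4 libraries 1 did.

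The enzymes themselves did not pass the test. EHMT2 had a log2 fold change of 0.004 ± 0.074 (adjusted p = 0.986) and EHMT1 one of -0.01 (0.941), and the sign of both depended on the setting. EHMT2 differed among the 4 groups (adjusted p = 0.015), from -0.20 for UNC0642 in Mel92.1 to 0.25 for A366 in MP41. TGFB1, an immunosuppressive growth factor, had 33.7 to 40.2 CPM with DMSO and 31.2 to 34.9 CPM with an inhibitor in Mel92.1, and 37.6 to 42.2 against 35.4 to 53.6 CPM in MP41 (-0.03 ± 0.08, adjusted p = 0.882). It too differed among the groups (adjusted p = 0.026), and the shared value joined -0.16 and -0.23 for UNC0642 and A366 in Mel92.1 with -0.02 and 0.27 in MP41. The NKG2D ligand genes MICB (-0.10, adjusted p = 0.658) and ULBP3 (0.75 ± 0.49, 0.627) did not pass either. ULBP3 had 166 counts in all and was at 0 in every MP41 library, so its value rests on Mel92.1 alone. Among 14 other writers, readers and silencing factors of lysine 9 methylation, none passed. At an unadjusted p under 0.05, 1 (7.14%) was higher and 2 (14.3%) were lower, against 5.74% and 3.29% over all genes. MORC2, a partner of the HUSH silencing complex, was separated below DMSO. It had 50.9 to 54.5 against 37.3 to 45.4 CPM in Mel92.1 and 37.5 to 38.6 against 32.4 to 35.7 CPM in MP41 (-0.28 ± 0.06, adjusted p = 0.0706). MPHOSPH8, of the same complex, was above DMSO in all 4 groups and not separated (0.34 ± 0.09, adjusted p = 0.208). SETDB1 (-0.06) and TRIM28 (0.06), the partners of KRAB zinc finger proteins, had adjusted p of 0.717 and 0.729.

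Genes of antigen presentation and pigment made smaller, mostly upward differences that did not pass the adjusted threshold. The MHC class II list was written after its values were seen and gets no test. Of its 10 members tested, 6 were higher and 0 lower at an unadjusted p under 0.05, with a median log2 fold change of 0.68, and HLA-DMA, HLA-DRB1 and HLA-DOA were separated above DMSO. HLA-DMA, which loads peptides, had 15.6 to 19.1 against 19.4 to 28.7 CPM in Mel92.1 and 36.9 to 38.8 against 43.5 to 85.4 CPM in MP41 (0.60 ± 0.14, adjusted p = 0.0988). Of 25 melanocyte lineage and pigment genes, 9 were higher and 1 lower at that level, with a median of 0.15, against 5.74% higher and 3.29% lower over all genes. Of the 25, 64.0% differed among the 4 groups, against 25.8% of all genes. The group medians were 0.12 for UNC0642 and 0.018 for A366 in Mel92.1, and 0.009 and 0.11 in MP41. With the mean of 4 changes, 7 were higher and 1 lower past the adjusted threshold, against 1.45% and 0.753% of all genes. TYR, the rate-limiting enzyme of melanin synthesis, had 249 to 274 against 306 to 380 CPM in Mel92.1, while in MP41 the ranges overlapped (0.24 ± 0.06, adjusted p = 0.182). RAB27A, which carries melanosomes to the cell edge, was separated (0.22 ± 0.07, adjusted p = 0.317). In 9 of the 25 the change was below 0, among them MITF (-0.11), the lineage's transcription factor, TYRP1 (-0.06), PAX3 (-0.06) and KIT. KIT, the receptor of stem cell factor, was the 1 lower gene, with 147 to 155.5 CPM with DMSO and 95.9 to 144 CPM with an inhibitor in MP41 and at most 0.0532 CPM in Mel92.1 (-0.29 ± 0.14, adjusted p = 0.550). The median of the list was 0.03 without the 4 libraries.

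**Figure D5:**
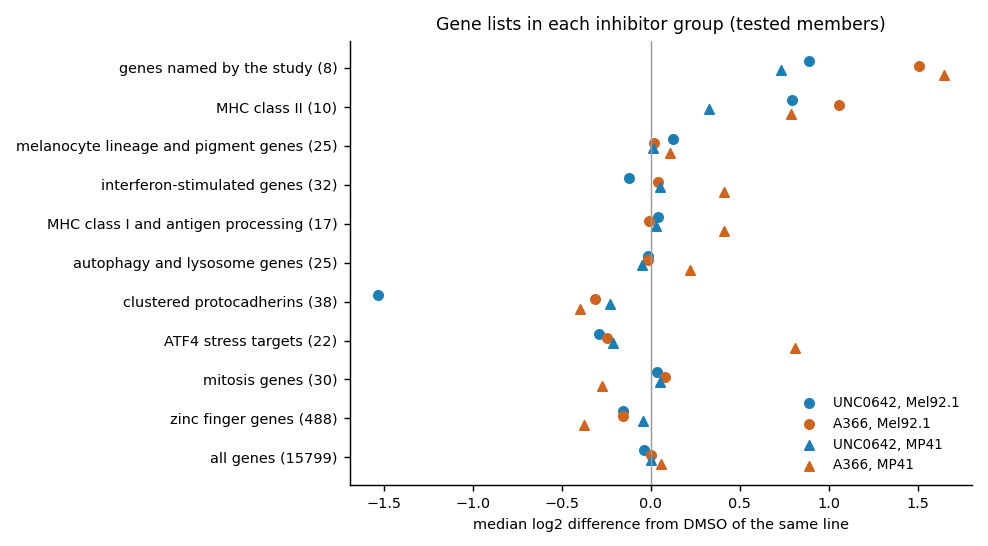
Median log2 difference from the DMSO libraries of the same line over the tested members of each gene list (number in brackets), with 1 point for each of the 4 inhibitor groups. Lists on 1 side of 0 in all groups include MHC class II above it and zinc finger genes and clustered protocadherins below it, and ATF4 targets lie at 0.81 for A366 in MP41 and at -0.21 to -0.29 in the other groups.

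The remaining lists described here had no member past the adjusted threshold, and their counts at an unadjusted p under 0.05 stand beside 5.74% higher and 3.29% lower over all genes. Of 22 tested targets of ATF4, the transcription factor of amino acid and endoplasmic reticulum stress, 72.7% differed among the 4 groups, against 25.8% of all genes, and 1 (4.545%) was higher and 2 (9.09%) lower at that level. CHAC1, a glutathione-degrading enzyme under ATF4, had 21.4 to 28.9 CPM with DMSO in Mel92.1 and 2.98 to 8.34 CPM with an inhibitor. In MP41 it had 14.3 to 16.4 CPM with DMSO, 6.83 to 7.47 CPM with UNC0642 and 54.6 to 67.2 CPM with A366, so that the shared log2 fold change of -0.65 ± 0.59 joined opposite directions. Of 30 mitosis genes none was at an unadjusted p under 0.05 in the shared comparison, and 70.0% differed among groups. Of 32 interferon-stimulated genes tested 3 (9.375%), TRIM22, BST2 and OAS1, were higher and 0 lower, and 18.75% differed among groups. Of 38 clustered protocadherins 7 (18.4%) were lower and 1 (2.63%) higher, with a median of -0.33, and 2.63% differed among groups. The group medians were -1.53 for UNC0642 and -0.31 for A366 in Mel92.1, and -0.23 and -0.40 in MP41. The group at -1.53 holds Mel92.1 UNC0642 replicate 1, whose part in that value was not tested. Of 197 long noncoding RNAs named LINC 22 (11.2%) were higher and 0 lower, and 8.63% differed among groups.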

How the data were processed

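RNA-seq covered the lines Mel92.1 and MP41 under DMSO, UNC0642 or A366, with 3 biological replicates per group. The deposited table holds expected counts per gene that the authors made with RSEM (version 1.2.15) and Bowtie2 (version 2.1.0) against hg38, per their processing notes, for 26475 gene symbols, not normalized. Their published methods name mm10, TopHat, FPKM values and oligo-dT selection, and the series text names ribosomal depletion. The deposited values are expected counts of human genes, so mm10 and FPKM do not describe them. Which RNA selection was used could not be settled. No column was left out. The 4 libraries labelled A366 replicates 2 and 3 took the line that the published gene tables and their own counts give.

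Expected counts were rounded to whole numbers. edgeR (version 4.0.16) with filterByExpr, TMM factors and the quasi-likelihood test was fitted to all 18 libraries with the line as a term, and p-values were adjusted after Benjamini and Hochberg over 15799 genes (threshold 0.05). CPM values use TMM factors, except in the sums of cell type markers, which use total counts, and log2 differences of groups a prior count of 0.5. One marker of the list of other cell types is not reported here and is left out of its sum. Differences among groups came from a fit with 1 mean per group. DESeq2 (version 1.42.0), limma (version 3.58.1), other scalings, filters, an offset for GC content and length, a replicate block and subsets of libraries were the alternatives. The steps were tested on simulated data.

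Total counts per library give the depth, and the spread over replicates gives the error. Gene positions are from GENCODE release 29 and promoters from RefSeq. The text names genes past the threshold that moved alike, the genes of the study, EHMT2, EHMT1, TGFB1, MICB and ULBP3, and members of gene lists. Genes outside this rule, among them BTK, FSCN1, MORC2, MPHOSPH8, CHAC1 and the separated genes, were named after their values were seen. The members and lists were chosen with earlier results of these data known.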

Additional observations from a re-analysis of the deposited data

Results flagged for a closer look

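Of the 13 genes past the threshold of the shared comparison, 8 also passed the test of a difference among the 4 inhibitor groups (edgeR's quasi-likelihood F test with Benjamini-Hochberg adjustment). The adjusted p was 3.74e-06 for NOX5, 1.52e-05 for LAMB3, 0.00536 for LHFPL3-AS1, 0.00871 for RCN1, 0.0124 for GJB1, 0.0183 for SLAMF7, 0.039 for AZGP1 and 0.0472 for ACY1. Over all genes 4075 differed among the 4 groups, 2073 between A366 and UNC0642 over both lines, and 174 between Mel92.1 and MP41 over both compounds.

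In the library labelled Mel92.1 UNC0642 replicate 1, SLAMF7 (57.23 CPM) was the lowest and SULT1C2 (16.1 CPM) the highest of the 6 inhibitor libraries of Mel92.1, each at a distance from the next that passed Dixon's criterion. Among 26 groups of 6 libraries examined, chance alone gives about 1 in 20. This library also had the lowest depth and the largest share of ribosomal RNA, and their part in these values was not tested.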

How the results depend on the processing

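All 13 genes kept their direction under each of 18 left-out libraries and 24 other alternatives, while the number of genes past the threshold (11 higher and 2 lower, of which 10 and 2 were separated in the fit reported) moved with the model and the libraries. DESeq2 gave 123 higher and 49 lower genes (33 and 16 separated), and limma voom with sample weights 118 and 91 (28 and 18 separated). Library size alone gave 6 higher genes, 5 of them separated. The offset for GC content and length gave 7 higher and 2 lower (6 and 2 separated). A fold change of at least 1.5 beside the adjusted threshold left 6 higher and 1 lower (5 and 1 separated), and beside an unadjusted p it gave 287 and 74 (19 and 13 separated). Other scaling factors, no filter, a filter at 1 CPM and leaving out ribosomal RNA moved the counts by at most 1.5 times.

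By libraries, the line as labelled gave 0 in each count, with 326 genes at an unadjusted p under 0.05, and MP41 alone gave 0, with 1673. Without the 4 libraries labelled A366 replicates 2 and 3 there were 3 higher and 0 lower, the same 3 and 0 separated. UNC0642 alone gave 10 lower, all 10 separated, and A366 alone 454 higher and 314 lower (296 and 215 separated). Without the A366 libraries of MP41 there were 8 lower (7 separated), and in Mel92.1 alone 20 and 7, all separated. Leaving out 1 library gave 6 to 47 higher and 2 to 13 lower genes, with 5 to 32 and 2 to 9 separated. The highest of these came without Mel92.1 UNC0642 replicate 1.

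With 1 mean per group there were 229 and 119 genes (31 and 21 separated). Alternatives chosen after seeing the data gave 319 and 274 (72 and 54 separated) without the 3 libraries richest in ribosomal RNA, 398 and 318 (60 and 42) without Mel92.1 UNC0642 replicate 1, 68 and 14 (20 and 7) without the 4 libraries, and 112 and 69 (26 and 15) after that offset. The number of genes that differed among the 4 groups was 4075, or 623 without the 4 libraries and 1610 to 5502 when 1 library was left out. The cause of these shifts was not tested. Fits on part of the libraries also hold fewer samples.

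Same-numbered samples did not pair, since the correlation of their deviations over 18 pairs was -0.140 to 0.151, with 1 over 0.1. With a replicate block 6 genes passed, 4 higher (all 4 separated) and 2 lower, all among the 13, and 2618 differed among the groups. With the block and the GC and length offset it was 4 higher and 1 lower (3 and 1 separated).

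The sign turned only in genes not past the adjusted threshold of the fit reported. EHMT2 (0.004) had log2 fold changes of -0.0053 with voom, -0.058 with library size, -0.018 without ribosomal RNA, -0.0026 with no filter, -0.076 without the 4 libraries (-0.028 with 1 mean per group), -0.12 with UNC0642 alone, -0.085 without A366 in MP41, -0.099 in Mel92.1 alone, and -0.023 to 0.034 in single left-out libraries. EHMT1 (-0.01) had 0.059 with the line as labelled, 0.044 with UNC0642 alone, 0.014 without A366 in MP41, 0.062 with the offset (0.052 with the block, 0.057 with 1 mean per group) and -0.0397 to 0.0049 without 1 library. TGFB1 (-0.03) had 0.0198 with A366 alone, 0.12 in MP41 alone and -0.075 to 0.00016 without 1 library. With the line as labelled MICB had 0.16, SDC1 0.23 and TFDP1 0.017, and GRSF1 had 0.0072 with the offset, 0.0023 with the block and 0.0039 with 1 mean per group.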

Other observations

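Further genes were separated from DMSO in both lines without passing the adjusted threshold, and they were picked after their values were seen. CFI, which encodes complement factor I, a secreted protease, had 1.06 to 1.52 CPM with DMSO and 2.62 to 4.68 CPM with an inhibitor in Mel92.1, and 9.30 to 11.7 against 12.9 to 15.7 CPM in MP41 (log2 fold change 0.74 ± 0.15, adjusted p = 0.0763). SEPP1, which encodes the plasma selenium carrier selenoprotein P, had 1.45 to 1.57 against 2.43 to 5.10 CPM and 19.4 to 22.8 against 24.4 to 31.6 CPM (0.69 ± 0.14, adjusted p = 0.0706). HLA-DRB1, a chain of MHC class II, had 0.348 to 0.771 against 1.00 to 1.36 CPM and 2.02 to 2.47 against 2.68 to 6.61 CPM (0.98 ± 0.20, adjusted p = 0.0706). ACSL5, a fatty acid ligase, had group means of 18.3, 25.3 and 20.3 CPM with DMSO, UNC0642 and A366 in Mel92.1 and of 2.57, 4.03 and 7.79 CPM in MP41. With the mean of 4 changes these 4 passed the adjusted threshold.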
